A study of Rattus norvegicus with 12 samples.

Results

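The genes described here are the nuclear-encoded subunits of the mitochondrial respiratory chain and of ATP synthase, complexes I to V, in the renal cortex of rats given cisplatin or water. They were chosen by name alone, as the genes whose probes carried a rat symbol starting with Nduf followed by a, b, c, s or v, with Uqcr, with Cox4, Cox5, Cox6, Cox7 or Cox8, or with Atp5, together with Sdha, Sdhb, Sdhc and Sdhd. This gave 83 of the 15645 genes named on the array, with 147 probes. Of these, 82 passed the filter on dim probes, and 81 were well above background on all 12 arrays. The 83 genes comprised 31 subunits of complex I, 4 of complex II and 8 of complex III. They included 6 complex I assembly factors whose symbols fall under the same pattern. A further 18 were counted under complex IV, among them the pseudogene Cox6c-ps1, and 16 under complex V, among them the inhibitor Atp5if1. The 13 subunits encoded by mitochondrial DNA carried no probe named here and were not analysed here.

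Male Sprague-Dawley rats, 5 weeks old at purchase, received cisplatin by gavage at 3.75 mg/kg/day, water by gavage, cisplatin intravenously at 0.75 mg/kg/day, or water intravenously, each for 4 weeks. There were 3 animals per group, biological replicates by the labels, with 1 array per animal of total RNA from renal cortex. Route, dose and experiment changed together, so the experiments cannot be told apart by any one of them. The intravenous dose is that of each sample's own label, while a protocol text common to all samples gives 3.75 mg/kg/day. Cisplatin, a platinum compound that links DNA strands, accumulates in tubule cells.

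Complexes I and II pass electrons from NADH and succinate to ubiquinone, complex III passes them on to cytochrome c, and complex IV hands them to oxygen, while complexes I, III and IV pump protons. Complex V, the ATP synthase, uses the proton gradient to make ATP. The cells of the proximal tubule and of the thick ascending limb are rich in mitochondria, since reabsorption of solutes depends on ATP from respiration.

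Levels are given as log2 of a probe's processed signal over the 75th percentile of the signals on its array, and changes as log2 differences between group means with their standard error (SE). Levels of different probes are not comparable. A gene is said to have risen or fallen, or is called, where limma's moderated test gave a Benjamini-Hochberg adjusted p under 0.05 over all 34444 features tested. Arrays correlated at 0.981 to 0.993 within groups and at 0.910 to 0.992 between groups. Between 66.1% and 73.9% of probes were well above background. The 3 slides were not balanced over the groups. Slide 1 held the 3 gavage water arrays and array 1 of gavage cisplatin, slide 2 held arrays 2 and 3 of gavage cisplatin with the 3 intravenous water arrays, and slide 3 held the 3 intravenous cisplatin arrays, so that slide and treatment cannot be told apart in the intravenous experiment.

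In both experiments, subunits of all 5 complexes had lower levels under cisplatin. By gavage, 75 of 82 genes fell and 0 rose, while over all features 29.8% fell and 29.5% rose. Given intravenously, 75 of 82 fell and 0 rose, against 32% and 26.4% of all features. The median change was -0.98 in the gavage experiment, or 50.6% of the level in gavage water, while the median over all features was 0.0068. In the intravenous experiment it was -0.75, or 59.6% of the level in intravenous water, while the median over all features was -0.06. In bulk tissue, fewer cells of a type and less RNA per cell cannot be told apart.

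By the probe that stands for each, the same 72 genes were called lower in both experiments, among them Cox6b2, whose probes disagreed. The share of all features called lower in both experiments is not given here. Only Ndufaf4, Ndufaf5, Ndufaf7 and Cox7a2l passed the test in neither. Changes below -1 were found for 37 genes (45.1%) by gavage and for 15 (18.3%) intravenously, against 11.8% and 12.2% of all features. All 3 gavage cisplatin arrays lay below all 3 gavage water arrays for 75 genes, which was the case for 33.7% of all features. All 3 intravenous cisplatin arrays lay below all 3 intravenous water arrays for 77 genes (36.3% of all features) and above them for Ndufaf4 and Ndufaf5 (29.7% of all features). Across the 82 genes the changes in the experiments correlated at 0.76, over genes that share the same arrays and are not independent. The median SD between arrays of a group was 0.16 for these genes and 0.18 for all features in gavage cisplatin, and 0.058 and 0.13 in gavage water. It was 0.10 and 0.19 in intravenous cisplatin, and 0.073 and 0.13 in intravenous water.

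**Figure D1:**
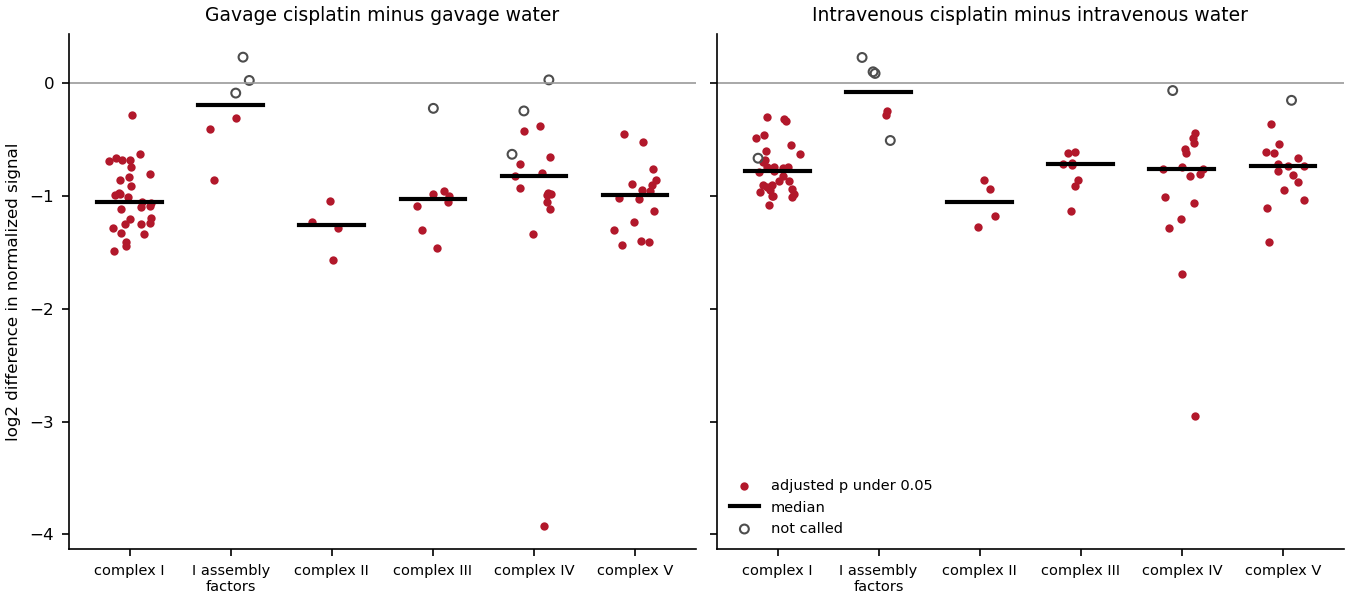
Log2 change of each of the 82 genes by complex, cisplatin minus water, in the gavage experiment (left) and the intravenous experiment (right). Each point is a gene, filled where the adjusted p was under 0.05, and bars are medians. All medians of the 5 complexes lie between -1.25 and -0.72, while the complex I assembly factors lie around -0.19 and -0.08, medians that turned positive with spike-in scaling.

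Between-array scaling sets how low these values lie. With arrays scaled to the spike-in probes, which are added in fixed amounts, in place of the 75th percentile, the median of all features moved up by 0.57 in the gavage and by 0.34 in the intravenous experiment. On that scale 46 genes fell and 4 rose by gavage, where 10.3% of all features fell and 56.6% rose, and their median was -0.41. Intravenously 42 fell and 3 rose, where 14.4% of all features fell and 40.2% rose, and their median was -0.40. The medians of complexes I to V stayed below 0 on both scales. Ndufaf4, Ndufaf5, Ndufaf7 and, by gavage, Cox7a2l were the genes called higher on the spike-in scale. Among the genes described singly and still below 0 on that scale, Ndufa5, Ndufc2, Ndufaf1, Cox6a1, Cox7a2, Cox7c and Atp5po were no longer called by gavage, nor Uqcrc1, Cox4i1, Cox6a1, Cox6a2 and Cox6b2 intravenously.

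Some promoters of these genes hold short motifs that the choice by name did not use, and no enrichment was tested. Sequences from RefSeq on GRCr8, 250 bases before to 50 bases after the start, were available for 73 of the 83 genes, 72 of them tested. The NRF1 motif, named for nuclear respiratory factor 1, was found on either strand in 14 of 72 (19.4%), against 8.4% of the promoters of all named genes tested and 4.25% of all promoters in the table. The ETS motif CCGGAAG, which GABPA binds, was in 22 of 72 (30.6%), against 15.4% and 8.75%. The YY1 motif was in 8 of 72 (11.1%), against 1.46% and 0.675%. The CREB motif TGACGTCA was in 4 (5.56%), against 2.89% and 1.83%, and the ERR motif TCAAGGTCA was in 1 (1.39%), against 0.213% and 0.433%. Promoters of mitochondrial ribosomal proteins, which are not respiratory subunits, had similar shares, 15.8% for the NRF1 and 33.3% for the ETS motif. No NRF1 motif was found in the 13 promoters of complex IV genes, while 6 of 28 of complex I and 4 of 15 of complex V held one.

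The 120 bases upstream of the annotated start, 5′ to 3′ on the gene's strand, are given for 6 subunits that fell in both experiments and for 1 assembly factor that did not pass the test in either. Capitals mark the motifs, on either strand, so that CTTCCGG is the ETS motif read from the other strand. In Sdha (chr1:30764433-30764552, plus strand) they are 2 NRF1 motifs, both read from the other strand. In Atp5me (chr14:1464740-1464859, plus strand) they are an NRF1 and an ETS motif. In Atp5po (chr11:44657484-44657603, minus strand) they are 1 NRF1 motif, and in Ndufa11 (chr9:1637494-1637613, plus strand) 2 that overlap. In Uqcrc2 (chr1:184599120-184599239, plus strand) they are 2 ETS motifs, and in Cox8a (chr1:213833624-213833743, minus strand) a CREB and 2 ETS motifs. In Ndufaf5 (chr3:147961492-147961611, plus strand), the assembly factor, they are 1 NRF1 motif.
Sdha: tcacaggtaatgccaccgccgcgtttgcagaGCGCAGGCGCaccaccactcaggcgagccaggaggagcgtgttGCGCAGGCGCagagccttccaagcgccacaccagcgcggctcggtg
Atp5me: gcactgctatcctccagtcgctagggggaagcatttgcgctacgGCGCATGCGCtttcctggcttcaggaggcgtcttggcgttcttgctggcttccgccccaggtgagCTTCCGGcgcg
Atp5po: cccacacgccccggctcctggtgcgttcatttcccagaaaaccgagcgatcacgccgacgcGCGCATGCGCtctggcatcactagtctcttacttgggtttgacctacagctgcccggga
Ndufa11: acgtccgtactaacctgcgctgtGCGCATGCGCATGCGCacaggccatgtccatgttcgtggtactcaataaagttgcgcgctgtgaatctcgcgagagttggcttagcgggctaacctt
Uqcrc2: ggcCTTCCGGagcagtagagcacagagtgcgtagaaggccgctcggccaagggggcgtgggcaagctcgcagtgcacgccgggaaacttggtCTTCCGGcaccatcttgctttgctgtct
Cox8a: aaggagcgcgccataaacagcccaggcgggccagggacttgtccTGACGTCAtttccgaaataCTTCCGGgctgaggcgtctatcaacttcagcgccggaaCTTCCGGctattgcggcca
Ndufaf5: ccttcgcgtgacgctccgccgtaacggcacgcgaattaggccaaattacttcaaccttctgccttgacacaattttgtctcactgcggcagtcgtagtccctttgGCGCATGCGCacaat

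Ndufaf5, which modifies Ndufs7 during assembly of complex I, holds the NRF1 motif as Atp5po does, and changed by -0.09 ± 0.10 by gavage and 0.10 ± 0.10 intravenously, both not called (limma, adjusted p = 0.492 and 0.401). A motif match is a description of these letters and not a binding site.

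Complex I is the NADH dehydrogenase. All 31 subunits fell by gavage, with changes between -1.48 and -0.28 and a median of -1.05, and 30 of 31 fell intravenously, with changes between -1.08 and -0.30 and a median of -0.77. The 7 core subunits, which carry the flavin and the iron-sulfur clusters or face the quinone site, had medians of -1.33 by gavage and -0.90 intravenously. The 24 supernumerary subunits had medians of -0.98 and -0.75. In 6 of 6 cisplatin arrays the core median lay below the supernumerary median, which was not tested.

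Ndufs1, the largest iron-sulfur subunit of the NADH-oxidizing arm, was at 3.70, 3.91 and 3.38 in gavage cisplatin, against 5.17, 5.15 and 5.12 in gavage water. It was at 3.79, 4.16 and 4.19 in intravenous cisplatin, against 5.11, 5.07 and 4.99 in intravenous water. The groups did not overlap in either experiment, and gavage cisplatin array 3 was the lowest of all. Its level fell by gavage (-1.48 ± 0.14, SE, adjusted p = 1.66e-05, limma) and intravenously (-1.01 ± 0.14, adjusted p = 2.49e-04). Ndufs7, which carries the cluster next to ubiquinone, was at 4.99, 5.05 and 4.75 in gavage cisplatin and 6.40, 6.37 and 6.33 in gavage water, and at 5.09, 5.36 and 5.51 in intravenous cisplatin and 6.23, 6.28 and 6.16 in intravenous water. It fell to 36.9% of gavage water and to 53.4% of intravenous water, with no overlap. Ndufv3, a small accessory subunit of the flavoprotein part, was at 5.69, 5.45 and 5.27 in gavage cisplatin and 6.88, 6.83 and 6.93 in gavage water, and at 5.68, 5.52 and 5.66 in intravenous cisplatin and 6.68, 6.87 and 6.56 in intravenous water. Its changes were -1.41 ± 0.12 and -1.08 ± 0.12, with groups apart, and all 4 of its probes fell in both experiments.

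The smallest fall of complex I was that of Ndufs4 by gavage and that of Ndufa5 intravenously. Ndufs4, an accessory subunit of the NADH-oxidizing arm whose loss in mice causes a fatal brain disease, was at 4.16, 4.02 and 3.83 in gavage cisplatin and 4.32, 4.31 and 4.22 in gavage water. In intravenous cisplatin it was at 4.02, 3.87 and 3.97, against 4.18, 4.36 and 4.31 in intravenous water. Each cisplatin array lay below each water array of its experiment, but the changes of -0.28 ± 0.10 and -0.33 ± 0.10 turned to 0.29 and 0.010 with spike-in scaling. The gavage call was lost without gavage water array 1 or 2 or gavage cisplatin array 2 or 3, and the intravenous call without array 2 of either intravenous group. A second, dimmer Ndufs4 probe fell by 1.02 by gavage and by 0.82 intravenously. Ndufa5, an accessory subunit of the matrix arm, was at 6.58, 6.44 and 6.21 in gavage cisplatin and 7.10, 7.05 and 7.10 in gavage water, and at 6.49, 6.44 and 6.62 in intravenous cisplatin and 6.85, 6.84 and 6.76 in intravenous water. It changed by -0.68 ± 0.10 by gavage and -0.30 ± 0.10 intravenously, both called in limma, and the intravenous value turned to 0.042 with spike-in scaling. Its intravenous call was lost without array 1 or 2 of either intravenous group.

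The 6 complex I assembly factors, which build the complex and are not part of it, had medians of -0.19 by gavage and -0.08 intravenously. In 6 of 6 cisplatin arrays their median lay above those of all 5 complexes. Ndufaf1, a factor of the membrane arm, was at -1.49, -1.13 and -1.90 in gavage cisplatin and -0.61, -0.75 and -0.58 in gavage water, and at -1.79, -1.07 and -1.02 in intravenous cisplatin and -0.83, -0.84 and -0.69 in intravenous water. It fell by gavage (-0.86 ± 0.22), and its intravenous change of -0.51 ± 0.22 was not called (adjusted p = 0.075, limma). Ndufaf3 was at 2.79, 2.84 and 2.59 in gavage cisplatin and 3.05, 3.03 and 3.05 in gavage water, and at 2.66, 2.65 and 2.70 in intravenous cisplatin and 2.89, 2.94 and 2.91 in intravenous water. Ndufaf8, a partner of Ndufaf5, was at 4.37, 4.18 and 4.0 in gavage cisplatin and 4.61, 4.53 and 4.60 in gavage water, and at 4.25, 4.18 and 4.37 in intravenous cisplatin and 4.55, 4.64 and 4.44 in intravenous water. Both were called lower in both experiments, with changes of -0.30 and -0.40 by gavage and -0.25 and -0.28 intravenously, but turned to between 0.066 and 0.27 with spike-in scaling. The intravenous call of Ndufaf3 was lost without array 2 of either intravenous group. That of Ndufaf8 was lost without array 1 or 2 of either intravenous group, any gavage water array or gavage cisplatin array 2. Ndufaf4, a partner of Ndufaf3, was at 1.53, 1.93 and 1.60 in gavage cisplatin and 1.42, 1.57 and 1.37 in gavage water, and at 1.75, 1.67 and 1.77 in intravenous cisplatin and 1.59, 1.37 and 1.54 in intravenous water. Neither difference was called (0.23 ± 0.12 and 0.23 ± 0.12), although 1 of its 3 dimmer probes was called higher intravenously, by 0.42.

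Complex II, succinate dehydrogenase, which also belongs to the tricarboxylic acid cycle, had the lowest median of the 5 complexes in 6 of 6 cisplatin arrays. All 4 subunits fell in both experiments, with medians of -1.25 by gavage and -1.05 intravenously. Sdha, the flavoprotein that oxidizes succinate, was at 5.47, 5.43 and 5.29 in gavage cisplatin, against 7.10, 6.87 and 6.94 in gavage water. In intravenous cisplatin it was at 5.37, 5.57 and 5.99, against 6.96, 6.93 and 6.85 in intravenous water. It fell to 33.7% of gavage water (-1.57 ± 0.14, adjusted p = 1.17e-05, limma) and to 41.4% of intravenous water (-1.27 ± 0.14, adjusted p = 6.31e-05).

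Sdhb, the iron-sulfur subunit, was at 4.35, 4.40 and 4.24 in gavage cisplatin and 5.38, 5.40 and 5.33 in gavage water, and at 4.36, 4.45 and 4.62 in intravenous cisplatin and 5.36, 5.36 and 5.28 in intravenous water. Its changes were -1.04 ± 0.09 and -0.86 ± 0.09, the smallest of the complex in both experiments. Sdhc, a membrane anchor, was at 4.04, 4.18 and 3.94 in gavage cisplatin and 5.31, 5.24 and 5.30 in gavage water, and at 4.01, 4.15 and 4.22 in intravenous cisplatin and 5.27, 5.38 and 5.24 in intravenous water. Its changes were -1.23 ± 0.09 and -1.17 ± 0.09. Sdhd, the other anchor, was at 4.98, 4.96 and 4.83 in gavage cisplatin and 6.22, 6.24 and 6.16 in gavage water, and at 5.04, 5.19 and 5.21 in intravenous cisplatin and 6.13, 6.08 and 6.04 in intravenous water, changes of -1.28 ± 0.08 and -0.93 ± 0.08. For all 4 genes every cisplatin array lay below every water array of its experiment.

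Complex III, which passes electrons from ubiquinol to cytochrome c, fell with medians of -1.02 by gavage (7 of 8 subunits called) and -0.72 intravenously (8 of 8). Uqcrc2, a core scaffold subunit, was at 3.83, 3.97 and 3.61 in gavage cisplatin and 5.24, 5.37 and 5.17 in gavage water, and at 4.05, 4.34 and 4.25 in intravenous cisplatin and 5.14, 4.97 and 5.10 in intravenous water. All cisplatin arrays were below all water arrays, and the gavage cisplatin arrays were below the intravenous ones. It changed by -1.46 ± 0.12 by gavage and -0.86 ± 0.12 intravenously. Its promoter is the one above with 2 ETS motifs. Uqcrfs1, the Rieske iron-sulfur protein that takes the electrons from ubiquinol, was at 4.75, 4.83 and 4.58 in gavage cisplatin and 6.03, 6.04 and 5.99 in gavage water, and at 4.89, 4.96 and 5.06 in intravenous cisplatin and 5.88, 5.91 and 5.84 in intravenous water, changes of -1.30 ± 0.08 and -0.91 ± 0.08. Uqcrc1, the other core scaffold subunit, was at 4.42, 4.34 and 4.16 in gavage cisplatin and 5.36, 5.31 and 5.23 in gavage water, and at 4.50, 4.57 and 4.70 in intravenous cisplatin and 5.22, 5.23 and 5.14 in intravenous water, changes of -1.0 ± 0.09 and -0.61 ± 0.09 with groups apart.

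Uqcrq, a small subunit, differed in pattern from the other 7. It was at -0.85, -0.46 and -0.21 in gavage cisplatin and -0.26, -0.15 and -0.46 in gavage water, groups that overlap, and the change of -0.22 ± 0.20, which turned to 0.35 with spike-in scaling, was not called (adjusted p = 0.37, limma). In intravenous cisplatin it was at -0.86, -0.74 and -1.03, against 0.43, 0.50 and -0.16 in intravenous water, and it fell (-1.13 ± 0.20, adjusted p = 9.68e-04). Array 1 of gavage cisplatin lay among the intravenous cisplatin arrays for this probe.

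Complex IV, cytochrome c oxidase, has isoforms that differ between tissues. The 11 subunits found in most tissues all fell in both experiments, with medians of -0.97 by gavage and -0.76 intravenously. Of 5 tissue-restricted isoforms 4 were tested, with medians of -0.50 by gavage (0.07 with spike-in scaling) and -1.14 intravenously. By the probe that stands for each, 2 were called lower by gavage and 4 intravenously, but these include Cox6b2 in both experiments and Cox6a2 intravenously, for which another probe rose. The fifth, Cox8c, known from testis, was not well above background on 11 of 12 arrays.

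Cox4i1, the common form of subunit 4 through which ATP slows the enzyme, was at 7.04, 7.0 and 6.85 in gavage cisplatin and 7.98, 7.94 and 7.88 in gavage water, and at 7.08, 7.16 and 7.25 in intravenous cisplatin and 7.79, 7.78 and 7.66 in intravenous water. Its groups were apart in both experiments, with changes of -0.97 ± 0.08 and -0.58 ± 0.08. Cox4i2, the isoform known from lung and induced by low oxygen, was at 1.44, 2.54 and 2.24 in gavage cisplatin and 2.50, 2.41 and 2.04 in gavage water, which overlap, and at 1.66, 1.68 and 1.75 in intravenous cisplatin and 3.10, 2.82 and 3.0 in intravenous water, which do not. The gavage change of -0.24 ± 0.24 was not called (adjusted p = 0.407, limma) and was 0.33 with spike-in scaling, and 0.075 without gavage cisplatin array 1. The intravenous change was -1.28 ± 0.24 (adjusted p = 0.00129).

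Cox6a1, the common form of subunit 6a, was at 8.04, 8.01 and 7.89 in gavage cisplatin and 8.78, 8.72 and 8.59 in gavage water, and at 8.09, 8.15 and 8.12 in intravenous cisplatin and 8.62, 8.55 and 8.50 in intravenous water. Its changes of -0.72 ± 0.08 and -0.44 ± 0.08 were called, but neither call held with quantile normalization (-0.18 and -0.03) or with spike-in scaling (-0.14 and -0.09). For the heart and muscle form Cox6a2 the probes disagreed. The probe that stands for it was at -1.64, -1.59 and -1.36 in gavage cisplatin and -1.25, -0.25 and -1.21 in gavage water, and at -1.70, -1.62 and -1.58 in intravenous cisplatin and 0.17, -0.93 and -1.14 in intravenous water. It changed by -0.63 ± 0.34 by gavage, not called, and -1.0 ± 0.34 intravenously, called but not without any one intravenous cisplatin array or intravenous water array 1, while another probe rose by 1.75 and 1.83. Likewise Cox6b2, a form known from testis, was called lower (-0.38 ± 0.13 and -0.74 ± 0.13, the gavage value 0.19 with spike-in scaling), while its other probe rose by 1.97 and 1.19. No direction is given for either gene.

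Cox7a2, the common form of subunit 7a, was at 5.48, 5.51 and 5.25 in gavage cisplatin and 6.38, 6.14 and 6.18 in gavage water, and at 5.33, 5.45 and 5.48 in intravenous cisplatin and 6.18, 6.28 and 6.21 in intravenous water. It fell by gavage (-0.82 ± 0.10) and intravenously (-0.80 ± 0.10). Cox7a2l, which joins complexes III and IV in supercomplexes, was at 4.98, 4.82 and 5.24 in gavage cisplatin and 4.94, 4.93 and 5.07 in gavage water, and at 5.14, 4.67 and 4.77 in intravenous cisplatin and 5.04, 4.86 and 4.86 in intravenous water. All its groups overlapped, and neither the change of 0.03 ± 0.14 nor that of -0.06 ± 0.14, which was 0.28 with spike-in scaling, was called. Its second probe changed by -0.0025 and -0.03.

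Cox8a, the common form of subunit 8, was at 7.36, 7.34 and 7.17 in gavage cisplatin and 8.29, 8.29 and 8.23 in gavage water, and at 7.38, 7.45 and 7.58 in intravenous cisplatin and 8.29, 8.26 and 8.15 in intravenous water, changes of -0.98 ± 0.09 and -0.76 ± 0.09. Cox8b, its heart and muscle counterpart, had the lowest change of all 82 genes. It was at -5.18, -5.61 and -6.01 in gavage cisplatin and -1.68, -1.80 and -1.55 in gavage water, and at -7.10, -3.68 and -3.37 in intravenous cisplatin and -1.62, -1.54 and -2.13 in intravenous water. No groups overlapped, but intravenous cisplatin array 1 was far below the other 2 and not well above background, and the intravenous change was -1.76 without it and -3.62 without array 3. The changes were -3.92 ± 0.78 (adjusted p = 0.00159, limma) and -2.95 ± 0.78 (adjusted p = 0.00865), and a second probe changed by -5.80 and -3.78. With normexp background correction they were -2.47 and -1.77.

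Ndufa4, first assigned to complex I and now to complex IV, was at 5.57, 5.46 and 5.37 in gavage cisplatin and 6.86, 6.74 and 6.80 in gavage water, and at 5.46, 5.71 and 5.74 in intravenous cisplatin and 6.80, 6.96 and 6.76 in intravenous water. It fell by gavage (-1.33 ± 0.10) and intravenously (-1.20 ± 0.10), with groups apart. Cox7c, a small subunit of the enzyme, was at 1.56, 2.57 and 2.26 in gavage cisplatin and 2.75, 2.87 and 2.73 in gavage water, and at 1.61, 1.72 and 2.0 in intravenous cisplatin and 3.55, 3.59 and 3.26 in intravenous water. Array 1 of gavage cisplatin again lay with the intravenous cisplatin arrays, and the intravenous water arrays lay above the gavage water arrays. Its changes were -0.66 ± 0.22 by gavage (adjusted p = 0.0267, limma, a call lost without any one of the gavage water arrays or gavage cisplatin array 1) and -1.69 ± 0.22 intravenously (adjusted p = 1.55e-04). Cox6c-ps1, whose symbol marks a pseudogene of Cox6c, was at 2.24, 2.77 and 2.58 in gavage cisplatin and 2.95, 3.03 and 2.89 in gavage water, and at 2.23, 2.41 and 2.42 in intravenous cisplatin and 3.47, 3.42 and 3.35 in intravenous water. Its changes of -0.42 ± 0.13 by gavage, which was 0.15 with spike-in scaling, and -1.06 ± 0.13 intravenously were called. Its second, dimmer probe changed by 0.36 and -0.67, neither called, and both calls were lost with the mean of all probes (-0.03 and -0.86). Whether its probe also binds Cox6c transcripts was not tested.

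**Figure D2:**
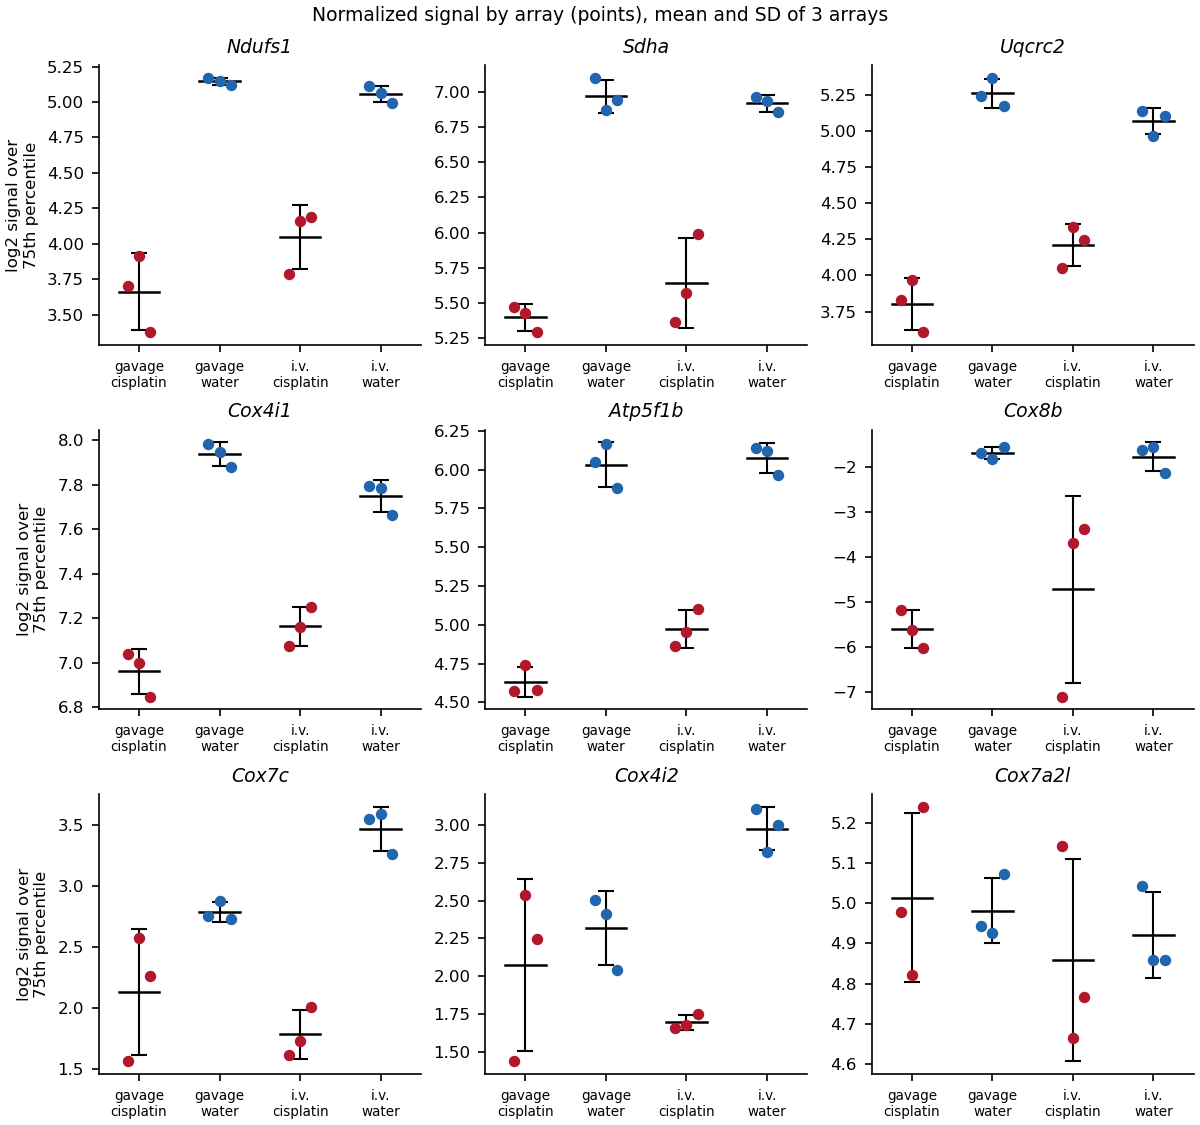
Log2 signal over the 75th percentile (y axis, a scale of its own per panel) on each array for 9 genes, in gavage cisplatin, gavage water, intravenous cisplatin and intravenous water. Points are arrays, and bars are the mean and SD of 3 arrays. Ndufs1, Sdha, Uqcrc2, Cox4i1, Atp5f1b and Cox8b are lower in every cisplatin array, Cox7c and Cox4i2 vary among gavage cisplatin arrays, and Cox7a2l overlaps throughout.

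Complex V, the ATP synthase, fell in 16 of 16 genes by gavage (median -0.99) and in 15 of 16 intravenously (median -0.73). The 5 genes of the catalytic head and central stalk had medians of -1.40 by gavage and -0.95 intravenously, below those of the peripheral stalk (-0.96 and -0.84, 4 genes), the c ring (-0.91 and -0.57, 2 genes) and the small membrane subunits (-0.95 and -0.72, 4 genes). This order of the head below the other 3 groups held in 6 of 6 cisplatin arrays on 75th percentile scaling and was not tested. Intravenously it did not hold with quantile normalization, where the head was at -0.56 and the peripheral stalk at -0.66, nor with normexp background correction, where they were at -0.87 and -0.88. Atp5f1a, the alpha subunit of the head, was at 7.30, 7.53 and 7.31 in gavage cisplatin and 8.97, 8.86 and 8.62 in gavage water, and at 7.63, 7.91 and 7.90 in intravenous cisplatin and 8.83, 8.69 and 8.77 in intravenous water. Its changes were -1.44 ± 0.12 and -0.95 ± 0.12.

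Atp5f1b, the beta subunit that holds the catalytic sites, was at 4.58, 4.74 and 4.58 in gavage cisplatin and 6.05, 6.17 and 5.88 in gavage water, and at 4.86, 4.95 and 5.10 in intravenous cisplatin and 6.14, 6.12 and 5.97 in intravenous water. It fell to 37.9% of gavage water (-1.40 ± 0.10, adjusted p = 3.70e-06, limma) and to 46.6% of intravenous water (-1.10 ± 0.10, adjusted p = 2.43e-05). Atp5f1c, the gamma subunit that turns within the head, was at 4.64, 4.70 and 4.43 in gavage cisplatin and 6.04, 5.95 and 6.01 in gavage water, and at 4.74, 4.84 and 4.97 in intravenous cisplatin and 5.92, 5.87 and 5.86 in intravenous water, changes of -1.41 ± 0.09 and -1.03 ± 0.09. Groups of all 3 head subunits were apart in both experiments.

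Atp5po, the peripheral stalk subunit known as the oligomycin sensitivity conferral protein, was at 6.91, 6.92 and 6.64 in gavage cisplatin and 7.92, 7.74 and 7.88 in gavage water, and at 6.86, 7.01 and 5.15 in intravenous cisplatin and 7.71, 7.82 and 7.71 in intravenous water. A single array, number 3 of intravenous cisplatin, lay far below the other 2. The gavage change was -1.02 ± 0.39 (adjusted p = 0.0424, limma), a call lost without any one of the gavage cisplatin, gavage water or intravenous water arrays. The intravenous change of -1.41 ± 0.39 was -0.81 without array 3 and stayed called. Its call was lost in a fit of the 6 intravenous arrays alone (adjusted p = 0.0543, limma). Atp5if1, which blocks the synthase from running in reverse, was at 5.85, 5.65 and 5.51 in gavage cisplatin and 6.18, 6.09 and 6.09 in gavage water, and at 5.89, 5.67 and 5.67 in intravenous cisplatin and 5.88, 5.97 and 5.84 in intravenous water. It was the least lowered gene of the complex, called by gavage (-0.45 ± 0.10) and not intravenously (-0.15 ± 0.10, adjusted p = 0.24, limma), and was at 0.13 and 0.19 with spike-in scaling.

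By array, the median change over complex I genes from the mean of the same experiment's water arrays was -0.93, -0.95 and -1.21 in gavage cisplatin and -0.91, -0.76 and -0.70 in intravenous cisplatin. For complex II it was -1.23, -1.17 and -1.36 in gavage cisplatin, and -1.17, -1.02 and -0.90 in intravenous cisplatin. For complex III it was -0.90, -0.98 and -1.18 in gavage cisplatin, and -0.84, -0.71 and -0.63 in intravenous cisplatin. Complex II lay below complexes I and III on every cisplatin array. For complex IV it was -0.75, -0.74 and -0.99 in gavage cisplatin, and -0.85, -0.78 and -0.72 in intravenous cisplatin. For complex V it was -0.87, -0.91 and -1.17 in gavage cisplatin, and -0.81, -0.69 and -0.66 in intravenous cisplatin. Array 3 was the lowest of gavage cisplatin and array 1 the lowest of intravenous cisplatin for each of the 5 complexes. The water arrays lay between -0.07 and 0.07 for these complexes.

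**Figure D3:**
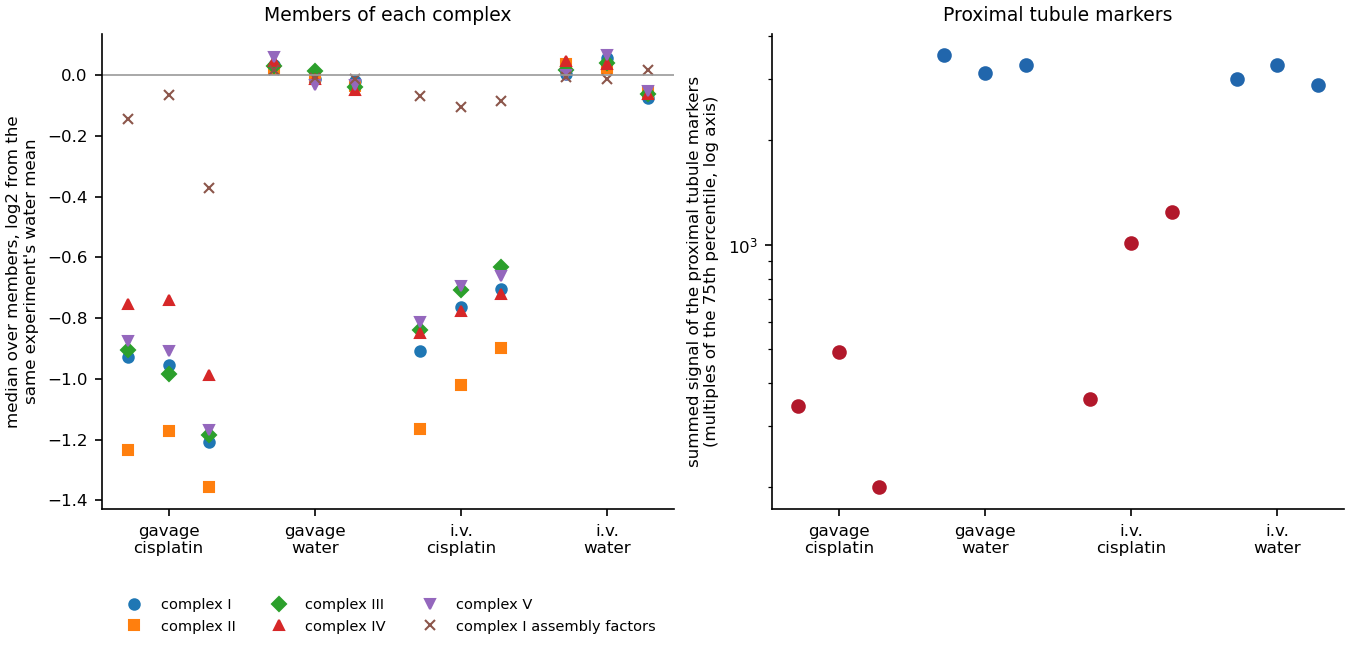
Left, median over the genes of each complex on each array, as log2 difference from the mean of the same experiment's water arrays. Right, summed signal of 18 proximal tubule markers in multiples of the 75th percentile, on a log axis. Cisplatin arrays lie below water arrays in both panels, with the assembly factor medians nearest to 0 and above 0 when scaled to spike-in probes.

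Tubule markers moved with these genes, and their part in the result was not tested. All 18 proximal tubule markers fell by gavage and 17 of 18 fell intravenously, with medians of -3.62 and -2.21, and all 18 were well above background on at least 1 array of every group. Their summed signal was 343, 492 and 200.0 times the 75th percentile in gavage cisplatin, against 3135 to 3519 in gavage water. In intravenous cisplatin it was 360, 1012 and 1242, against 2900 to 3304 in intravenous water. Gavage cisplatin array 3 and intravenous cisplatin array 1, the lowest in the 5 complexes, were also the lowest in this sum of their groups. Thick limb and distal tubule markers summed to 94.2 to 111 in gavage cisplatin against 650.0 to 715 in gavage water, and to 106 to 164 in intravenous cisplatin against 678 to 786 in intravenous water. Of 10 tested, 8 fell in each experiment, and Pvalb was not well above background in 3 of the groups. Of the renal cortex markers, Lrp2, Slc34a1 and Umod were well above background on all 12 arrays.

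Markers of injured tubules and of fibroblasts were mostly higher. Injured tubule markers, such as Havcr1 (kidney injury molecule 1) and Clu, summed to 526 to 589 in gavage cisplatin against 34.1 to 38.2 in gavage water, and to 488 to 591 in intravenous cisplatin against 32.1 to 37.1 in intravenous water. Of 9 tested, 8 rose by gavage and 9 intravenously, and Krt20 among them was not well above background in intravenous water. Of 9 fibroblast markers 9 rose by gavage and 8 intravenously, and of 10 macrophage markers 9 rose by gavage and 6 intravenously. Fibroblast markers summed to 139 to 182 in gavage cisplatin against 32.5 to 43.4 in gavage water, and to 91.7 to 157 in intravenous cisplatin against 31.0 to 41.7 in intravenous water. Lum and Postn among them were not well above background in either water group. A gene so dim in water can enter the test only through a cisplatin group, so its rise is partly set by the filter. Macrophage markers summed to 34.1 to 65.1 in gavage cisplatin against 17.8 to 20.4 in gavage water, and to 34.9 to 49.0 in intravenous cisplatin against 18.5 to 29.1 in intravenous water. Cd163, one of the 10 tested, was likewise not well above background in either water group, nor Itgam in gavage water. Of 12 collecting duct markers, 9 fell and 1, Aqp4, rose in each experiment. Their sums overlapped, at 179 to 284 in gavage cisplatin against 242 to 278 in gavage water. Intravenously they were 132 to 225 in cisplatin against 214 to 226 in water. With spike-in scaling 5 collecting duct markers fell and 2 rose by gavage, and 4 fell and 1 rose intravenously. Of 8 podocyte markers 5 fell by gavage and 4 intravenously, and of 8 endothelial markers 4 fell and 1 rose by gavage and 3 fell and 1 rose intravenously. With spike-in scaling 0 podocyte markers fell, 2 rose by gavage and 3 rose intravenously. Of the endothelial ones 1 fell and 4 rose by gavage and 1 fell and 1 rose intravenously on that scale. Over all features 29.8% fell and 29.5% rose by gavage, and 32% fell and 26.4% rose intravenously. With spike-in scaling 10.3% of all features fell and 56.6% rose by gavage, and 14.4% fell and 40.2% rose intravenously. Of 8 lymphocyte markers, 2 rose by gavage and 5 intravenously, against 29.5% and 26.4% of all features. Their part in the changes of the respiratory genes was not tested either. Beside the muscle isoforms Cox8b and Cox6a2, muscle and heart markers summed to 1.07 to 1.85 in gavage cisplatin against 0.829 to 0.870 in gavage water, and to 1.06 to 1.22 in intravenous cisplatin against 1.12 to 1.27 in intravenous water. Of 6 tested muscle markers, 3 rose by gavage, while 2 fell and 2 rose intravenously. Actn2 was not well above background in any group, nor Myl2 in either water group, nor Myh6 in gavage cisplatin.

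The experiments were compared through the difference of their effects, intravenous minus gavage. None of the 82 genes passed this test in limma, at a background of 1.03% of all features lower and 0.168% higher. At an unadjusted p under 0.05 there were 32 genes (39.0%), against 19.4% of all features. The difference was above 0, meaning a higher value intravenously, for 70 of 82 genes, against 47.4% of all features. With spike-in scaling, which shifts every difference by -0.23, it was above 0 for 48 of 82 genes, against 23.6% of all features, and the medians of the 82 genes were -0.41 by gavage and -0.40 intravenously. The smallest adjusted p, 0.0966, was that of Uqcrc2, whose difference was 0.60 ± 0.16. Next came Cox6c-ps1 (-0.63 ± 0.18), Uqcrfs1 (0.39 ± 0.12), Cox7c (-1.03 ± 0.31) and Cox4i1 (0.39 ± 0.12). The signs of Cox7c and Cox6c-ps1 run against most of the genes, as do those of Uqcrq (-0.91 ± 0.29) and Cox4i2 (-1.04 ± 0.34).

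Single arrays decided these calls. Gavage cisplatin array 1 is the only cisplatin array on the slide of the gavage water arrays. Without it, slide and treatment cannot be told apart in the gavage experiment either. Without gavage cisplatin array 1, 9 genes passed, among them Cox7c at -1.31 and Cox4i2 at -1.36 as lower and Cox5b at 0.65 as higher. In that fit 2033 of all 34444 features passed as lower and 539 as higher. Without intravenous cisplatin array 1, 4 genes passed as higher, Ndufs7, Uqcrc2, Cox8b and Atp5mc1. There 1330 of all 34444 features passed as lower and 953 as higher, so calls appeared over the whole array and not in these genes alone. Leaving out any other array gave 0 calls among the 82 genes.

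The water groups served as the background between experiments. Intravenous water minus gavage water gave 0 called genes among the 82 and 0 among all features in limma, with 9 of the 82 (11%) and 14.1% of all features at an unadjusted p under 0.05. The median difference was -0.11. All 3 intravenous water arrays lay below all 3 gavage water arrays for 37 of the 82 genes, against 15.1% of all features, and above them for 5, against 13.7%. Cox7c differed by 0.68 ± 0.22 and Cox4i2 by 0.66 ± 0.24, neither called. In a fit of the 4 groups without gavage cisplatin array 1, Cox7c, Cox4i2 and Cox6c-ps1 passed, each higher in intravenous water. These are 3 of the 82 genes, while 1023 of all 34444 features passed as higher and 157 as lower in that fit.

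**Figure D4:**
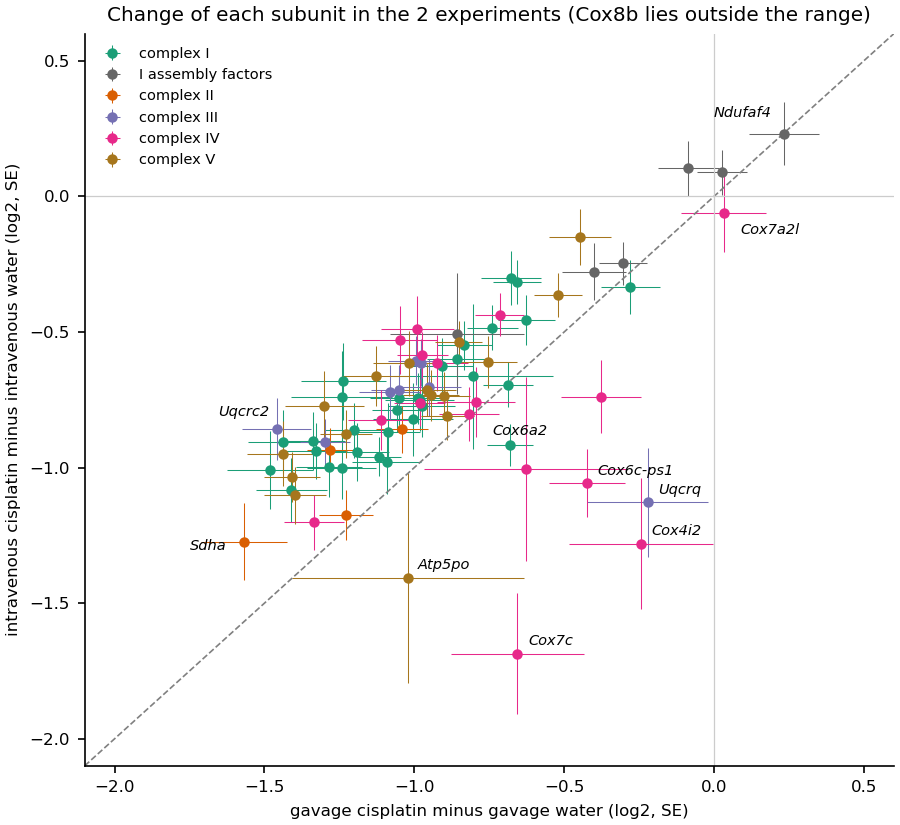
Log2 change of 81 genes, intravenous cisplatin minus water (y axis) against gavage cisplatin minus water (x axis), with SE as bars, on 75th percentile scaling. Cox8b, at -3.92 and -2.95, lies outside the range. Most points lie above the dashed line of equal change, while Cox7c, Cox4i2, Uqcrq and Cox6c-ps1 lie below it.

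Where several probes measured a gene, they mostly ran the same way. Of 43 genes with more than 1 probe above background (105 probes), every probe was below 0 for 37 by gavage and for 39 intravenously, and every probe was called lower for 34 and 36. Besides Cox6a2 and Cox6b2, probes differed for Ndufc2, a membrane arm subunit of complex I. The probe that stands for it changed by -0.68 ± 0.08 and -0.92 ± 0.08, its other probe by -0.02 by gavage and -2.28 intravenously.

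Genes around the chain were read from lists made from textbook knowledge. Of 17 tested genes of the tricarboxylic acid cycle and pyruvate dehydrogenase, which feed the chain with NADH, 16 fell by gavage (median -1.26) and 16 intravenously (median -0.89), and 0 rose. Idh2, the mitochondrial NADP-dependent isocitrate dehydrogenase, changed by -2.27 ± 0.11 by gavage and -1.69 ± 0.11 intravenously. Pdha1, a catalytic subunit of pyruvate dehydrogenase, changed by -1.26 ± 0.08 and -1.07 ± 0.08. Of 15 electron carriers and enzymes of ubiquinone synthesis, 12 fell and 1 rose by gavage (median -0.89), and 11 fell and 1 rose intravenously (median -0.79). Etfa, a subunit of the electron transfer flavoprotein of fat oxidation, changed by -1.44 ± 0.07 and -0.95 ± 0.07, and Coq8a, needed for ubiquinone synthesis, by -3.0 ± 0.22 and -2.08 ± 0.22. Gpd2, the glycerol-3-phosphate dehydrogenase that also feeds ubiquinone, was the one that rose, by 0.91 ± 0.12 by gavage and 0.50 ± 0.12 intravenously.

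Assembly factors outside the naming pattern were a separate list. Of 35 tested, 25 fell and 0 rose by gavage (median -0.59), and 18 fell and 1, Uqcc2, rose intravenously (median -0.32). Cox16, an assembly factor of complex IV, changed by -1.34 ± 0.08 and -1.25 ± 0.08, and Sdhaf2, which adds the flavin to Sdha, by -1.08 ± 0.08 and -0.82 ± 0.08. Of 67 mitochondrial ribosomal proteins, which translate the subunits encoded in mitochondria, 47 fell and 0 rose by gavage (median -0.42), and 33 fell and 2, Mrpl23 and Mrps18b, rose intravenously (median -0.27). With spike-in scaling the medians of the outside assembly factors were -0.02 by gavage and 0.02 intravenously, and those of the ribosomal proteins 0.15 and 0.07.

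Of 18 tested regulators of mitochondrial biogenesis, 14 fell and 3 rose by gavage (median -0.67), and 11 fell and 2 rose intravenously (median -0.55). With spike-in scaling 6 fell and 5 rose by gavage (median -0.10), and 4 fell and 3 rose intravenously (median -0.20). Sirt3, a mitochondrial deacetylase, changed by -1.64 ± 0.14 and -1.04 ± 0.14, and Polrmt, the mitochondrial RNA polymerase, by -1.20 ± 0.10 and -0.69 ± 0.10. The coactivator Ppargc1a changed by -1.10 ± 0.18 and -0.72 ± 0.18, both called. Nrf1, which binds the NRF1 motif shown above, rose by 0.37 ± 0.08 by gavage and 0.58 ± 0.08 intravenously, and its related coactivator Pprc1 by 0.88 ± 0.11 and 1.15 ± 0.11. Gabpa, which binds the ETS motif, changed by -0.24 ± 0.08, called, and -0.08 ± 0.08, not called, and both changes lie within the upward shift that spike-in scaling gives every feature. Hif1a, the oxygen-sensitive factor, rose by gavage (0.42 ± 0.08) and was not called intravenously (0.19 ± 0.08). Whether these changes bear on those of the subunits was not tested.

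Glycolytic genes were split. Of 21 tested, 10 fell and 7 rose by gavage (median -0.44), and 10 fell and 5 rose intravenously (median -0.27). Over all features 29.8% fell and 29.5% rose by gavage, and 32% fell and 26.4% rose intravenously. With spike-in scaling 4 of the 21 fell and 9 rose by gavage, and 4 fell and 6 rose intravenously. On that scale 56.6% of all features rose by gavage and 40.2% intravenously. Ldha, which makes lactate from pyruvate, rose by 0.98 ± 0.10 and 1.05 ± 0.10, and Pfkp, a phosphofructokinase, by 1.45 ± 0.09 and 0.68 ± 0.09. Pkm, Slc2a1 and Hk1 also rose in both experiments, and Hk2 and Pdk1 by gavage. Ldhb, the lactate dehydrogenase subunit of oxidative tissue, changed by -1.93 ± 0.17 and -1.25 ± 0.17, and Pdk2, a kinase that holds back pyruvate dehydrogenase, by -1.82 ± 0.11 and -1.48 ± 0.11.

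**Figure D5:**
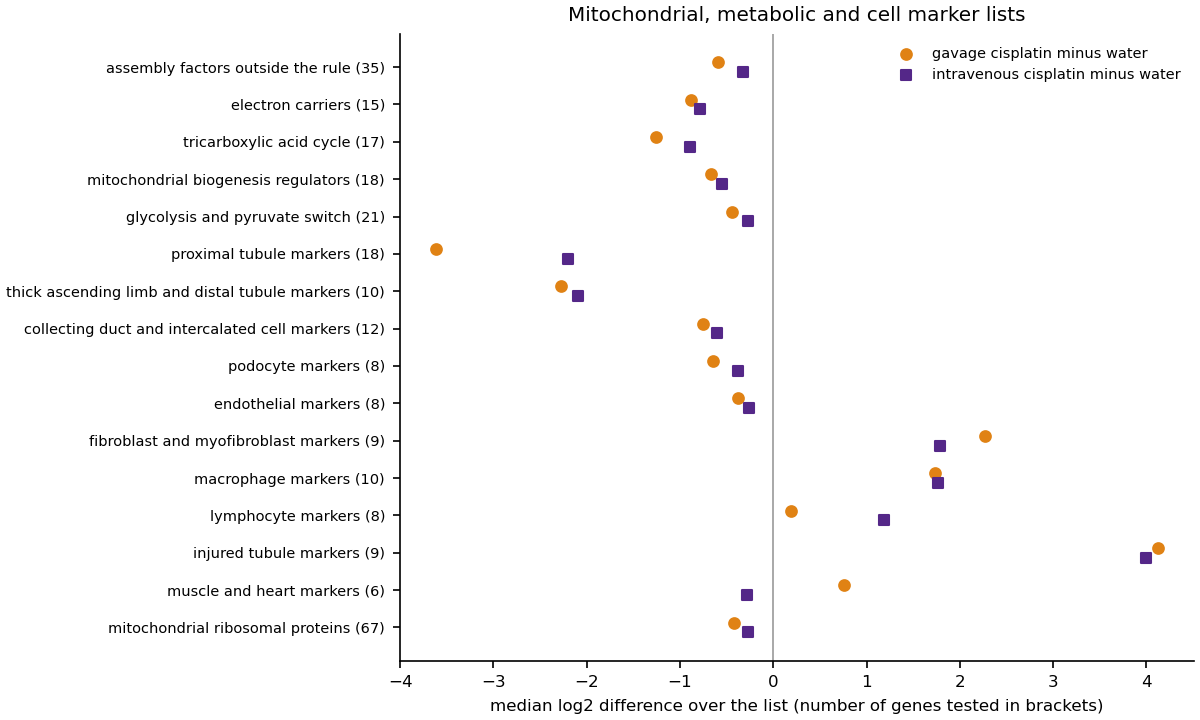
Median log2 change (x axis) over each list of genes around the respiratory chain and of cell markers, cisplatin minus water, by gavage (circles) and intravenously (squares), on 75th percentile scaling. Tricarboxylic acid cycle genes lie at -1.26 and -0.89, proximal tubule markers at -3.62 and -2.21, and injured tubule markers at 4.12 and 4.0. Medians of glycolytic, mitochondrial ribosomal and endothelial genes and, intravenously, of muscle genes and assembly factors are below 0 here and above 0 with spike-in scaling.

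Array slide could be fitted as a block in the gavage experiment, where array 1 of cisplatin shares slide 1 with the water arrays. With it 70 of the 82 genes fell and 0 rose, with a median of -0.88, while 24.8% of all features fell and 21.9% rose. The same fit gave Cox4i2 a called change of -0.88, while Ndufs4, Ndufaf1, Ndufaf3, Ndufaf8, Atp5po and Atp5if1 lost their calls.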

How the data were processed

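Rat whole-genome 1-colour Agilent arrays, 1 per animal, were deposited as scanner output. Its processed signals are background-subtracted intensity values from Agilent Feature Extraction, version 10.7 per the submitters' processing notes and 10.7.1.1 per the file headers. The design annotation is rn4, per the file headers. A deposited table of ratio values matched these signals divided by each array's 75th percentile and served as an alternative.

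Here log2 of the processed signal minus the array's 75th percentile was used, without control spots. Accessions of probes were named through RefSeq (GRCr8), which gave 28206 of 61537 probes 1 symbol, none several, and left 33331 unnamed. The probe with the highest mean over 12 arrays stood for a gene. A feature entered the test where every array of some group had it well above background, which kept 34444 of 48976, with 12610 named genes among them. One limma fit (3.58.1, R 4.3.3) over the 4 groups had 8 residual and 2.09 prior degrees of freedom, with Benjamini-Hochberg adjustment over all features at 0.05, and was tested on simulated data. The number of arrays limits precision, and 0 spots were saturated. Normexp was run on the median signal, since the mean signal was not a column. No sample was dropped or imputed.

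By the rule for named genes, values on every array were given, per complex and experiment, for the 2 called genes with the largest fall and the 1 with the highest change, for isoform pairs, complex II and Atp5if1, and for the 5 genes with the smallest p in the difference of effects. Other lists gave up to 4 genes with the smallest p and those called against most. Cox6b2, Ndufaf5, Ndufc2, Ppargc1a and Gabpa were added after their values were seen. The members, lists and tests were chosen with earlier results of these data known.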

Additional observations from a re-analysis of the deposited data

How the results depend on the processing

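Alternatives were quantile normalization, spike-in scaling, normexp background correction, the deposited values, other filters, the mean of all probes, the 6 arrays of an experiment alone, the slide as a block, the replicate number as a block, and each array left out. Leaving out 1 array gave 70 to 75 genes lower and 0 higher by gavage, and 70 to 75 lower and 0 higher intravenously. Quantile normalization gave 65 lower and 1 higher by gavage and 68 lower and 1 higher intravenously, the higher one being Ndufaf4. Spike-in scaling gave 46 lower and 4 higher by gavage and 42 lower and 3 higher intravenously, with 3549 features lower and 19482 higher by gavage and 4967 lower and 13839 higher intravenously. Spike-in scaling also moved the share of calls that were lower to 15.4% by gavage and 26.4% intravenously, against 50.2% and 54.9%, and normexp to 61.1% and 62.3%. The mean of all probes called 1 gene higher by gavage, Cox6b2. Numbers did not pair the samples: deviations of same-numbered arrays correlated at -0.349 to 0.184, and 1 of 12 arrays matched its own number best. With a replicate block 75 genes were lower by gavage and 74 intravenously, where Ndufaf8 lost its call, and the difference between experiments had 0 features lower and 0 higher.

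Medians of complexes I, II, III, IV and V by gavage were -0.79, -0.98, -0.77, -0.64 and -0.71 with quantile normalization, and -0.48, -0.68, -0.45, -0.25 and -0.41 with spike-in scaling. Intravenously they were -0.60, -0.84, -0.57, -0.60 and -0.57 with quantile normalization, and -0.43, -0.71, -0.38, -0.42 and -0.39 with spike-in scaling. The slide as a fixed block gave -0.93 for complex I and -0.90 for complex III by gavage, the values of cisplatin array 1 alone. Normexp gave -1.16 for complex II by gavage. The assembly factor median was -0.064 by gavage and 0.0055 intravenously with quantile normalization, 0.38 and 0.26 with spike-in scaling, -0.061 intravenously with the mean of all probes, and -0.10 to -0.066 intravenously without 1 array.

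Signs turned with spike-in scaling for Ndufs4 (0.29 by gavage, 0.010 intravenously), Ndufaf3 (0.27, 0.097), Ndufaf8 (0.17, 0.066), Atp5if1 (0.13, 0.19), Uqcrq (0.35), Cox4i2 (0.33), Cox6b2 (0.19), Cox6c-ps1 (0.15), Atp5mc2 (0.053) and Ndufaf5 (0.49) by gavage, and Ndufa5 (0.042), Ndufa12 (0.027) and Cox7a2l (0.28) intravenously. With quantile normalization Cox7a2l was at 0.16 and Atp5if1 at 0.071 intravenously. With the mean of all probes Cox6a2 was at 0.38 and 0.14, and Cox6b2 at 0.80 and 0.23. Cox7a2l was at -0.0023 by gavage with the slide block, an estimate from gavage cisplatin array 1 alone. Without 1 array, Cox4i2 ranged over -0.48 to 0.075 and Cox7a2l over -0.081 to 0.13 by gavage, the turned values being those without gavage cisplatin array 1 and array 3, and Cox7a2l over -0.20 to 0.034 intravenously, turning without intravenous cisplatin array 2. The cause was not tested.

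The difference between experiments, with 355 features lower and 58 higher, had 208 lower with quantile normalization, 850 lower and 14 higher with spike-in scaling, 189 higher with normexp, 0 and 0 without a filter, 108 higher among features above background on all arrays, and 106 higher with slide as a random block. Without 1 array it had 0 to 2033 lower and 0 to 953 higher, and 0 to 5 lower and 0 to 4 higher among the 82 genes. It had 2033 lower and 539 higher without gavage cisplatin array 1, and 1330 and 953 without intravenous cisplatin array 1. Intravenous minus gavage water, with 0 called, had 21 higher with spike-in scaling, 1 lower and 7 higher with normexp, 1 higher among features above background on all arrays, 142 lower and 879 higher (2 of the 82 genes) in the 6 arrays alone, 2 lower and 4 higher with the slide block, and 0 to 157 lower and 0 to 1023 higher (0 to 3 of the 82) without 1 array, the highest without gavage cisplatin array 1.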
